A study of Arabidopsis thaliana with 12 samples.

Results

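CML38 (AT1G76650), CML41 (AT3G50770) and CML42 (AT4G20780) are calmodulin-like calcium sensors of Arabidopsis thaliana. They were chosen by name: a probe set counted as a member if the platform annotation paired it with exactly 1 of these 3 genes, whatever its signal. Each gene had 1 probe set, so the members were 3 of the 22810 probe sets on the ATH1 array, and 3 of the 13286 genes that the annotation paired with a probe set of their own. All 3 had a value on every array.

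The study measured total RNA of 5 day old whole seedlings of the Columbia background on 12 arrays, 3 for each of 4 groups, and all seedlings had grown in liquid MS culture. Wildtype and Zat12 seedlings were each sampled untreated and after 1 hour in 20 mM H2O2. Zat12 seedlings were transgenic and expressed the zinc finger protein Zat12 (At5g59820) constitutively from the 35S-CaMV promoter, which is active in most tissues. Titles name the untreated groups, and those arrays carry no treatment entry, but a description shared by all 12 arrays mentions the H2O2 treatment. How many transgenic lines were used is not stated in the labels, and no probe set was paired with the transgene, so its level was not analysed here. The labels do not say whether the replicates were separate cultures, so p-values describe array-to-array spread that may be technical only, and 3 arrays per group limit the precision.

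Calcium enters the plant cytosol within moments of wounding, cold, microbial contact or oxidative stress. Calmodulins and their plant relatives, the calmodulin-like (CML) proteins, bind it through helix-loop-helix motifs called EF-hands, change shape and then act on partner proteins. CML38 is known as a protein induced by wounding and low oxygen that enters stress granules. CML41 is known for its place at plasmodesmata, the channels between plant cells, where it promotes callose deposition during immune responses. CML42 is known for its part in trichome branching, in which it binds the kinesin-interacting protein KIC, and in defence against insect feeding.

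After H2O2, CML38 and CML42 rose in both genotypes, CML41 was called higher in Zat12 seedlings but not in wildtype, and no member differed between untreated genotypes beyond the test's threshold. CML42 reached a higher signal in treated Zat12 than in treated wildtype, by 1.49 times. The values below are the linear MAS5 signals of the deposited table, in arbitrary units. They can be compared between arrays for 1 probe set, but not between genes. The log2 differences come from limma on log2(signal + 3) over 13647 tested probe sets, and a call means a p below 0.05 after Benjamini-Hochberg adjustment over all of them.

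CML38 had a signal of 19.6, 12.1 and 23.5 in untreated wildtype replicates 1, 2 and 3. With H2O2 the wildtype signals were 104, 137 and 131. In untreated Zat12 the replicates read 11.2, 24.2 and 10.0, and in treated Zat12 they read 120, 129 and 165. Every treated array therefore lay above every untreated array, and the genotypes overlapped within each condition. How many of all tested probe sets separate in this way was not counted, so here and below a lack of overlap is a description only.

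The mean of CML38 went from 18.4 ± 5.80 to 124 ± 17.5 in wildtype and from 15.2 ± 7.88 to 138 ± 23.7 in Zat12 (SD, n = 3 per group), ratios of 6.74 and 9.10. The log2 difference was 2.60 (SE 0.26, limma adjusted p = 6.27e-07) in wildtype and 3.03 (SE 0.26, limma adjusted p = 8.34e-08) in Zat12. For comparison, 22.0% of all tested probe sets were called in wildtype and 17.3% in Zat12, with 9.59% and 8.16% called higher. Probe sets were tested if their mean of log2(signal + 3) over all arrays was above a cutoff that equals a signal of 28.1. Both untreated means of CML38 lay below 28.1, so it entered the test through its treated arrays. At such low signals the offset of 3 shrinks the difference. The wildtype value became 2.80 without the offset and 2.17 when it was 4 times as large. CML38 was called higher in both genotypes under every alternative in which it was tested.

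On the log2 scale CML42 changed by less than CML38. Its coefficient of variation was the lower of the 2 genes in every group, though close to that of CML38 in treated Zat12 (15.9% against 17.2%). Untreated wildtype read 109.7, 113 and 119, and treated wildtype 373, 374 and 366. Untreated Zat12 read 121, 108.5 and 120, while treated Zat12 read 495, 505 and 652. The treated arrays were clear of the untreated ones in both genotypes, and the treated Zat12 arrays were all above the treated wildtype arrays.

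The mean of CML42 went from 114 ± 4.87 to 371 ± 4.06 in wildtype and from 116.5 ± 6.97 to 551 ± 87.6 in Zat12 (SD, n = 3 per group). The log2 difference was 1.68 (SE 0.12, limma adjusted p = 5.56e-09) in wildtype and 2.20 (SE 0.12, limma adjusted p = 1.35e-10) in Zat12. The coefficient of variation among the treated wildtype arrays was 1.09%, against 15.9% among the treated Zat12 arrays, where replicate 3 stood above the other two.

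CML41 had the smallest differences of the members between treated and untreated seedlings. Its signals were 33.5, 57.9 and 42.9 in untreated wildtype and 60.2, 54.4 and 65.1 in treated wildtype. In untreated Zat12 they were 25.2, 21.2 and 34.9, and in treated Zat12 43.4, 41.2 and 55.1. Treated and untreated arrays overlapped in wildtype, where the highest untreated array was above the lowest treated one, and did not overlap in Zat12.

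The mean of CML41 was 44.8 ± 12.3 untreated and 59.9 ± 5.34 treated in wildtype, and 27.1 ± 7.06 and 46.5 ± 7.46 in Zat12 (SD, n = 3 per group). In Zat12 it rose by a log2 value of 0.73 (SE 0.21, limma adjusted p = 0.0224). In wildtype the difference was 0.43 with a 95% confidence interval of -0.02 to 0.87 (limma adjusted p = 0.165), so a rise as large as that in Zat12 lay within the interval. The call in Zat12 ended without Zat12 replicate 1 (0.70, limma adjusted p = 0.0681), Zat12 replicate 2 (0.59, 0.101) or Zat12 H2O2 replicate 3 (0.61, 0.108), and with no filter on low signals (0.73, 0.0598). Over all single arrays left out the value ran from 0.59 to 0.91.

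**Figure D1:**
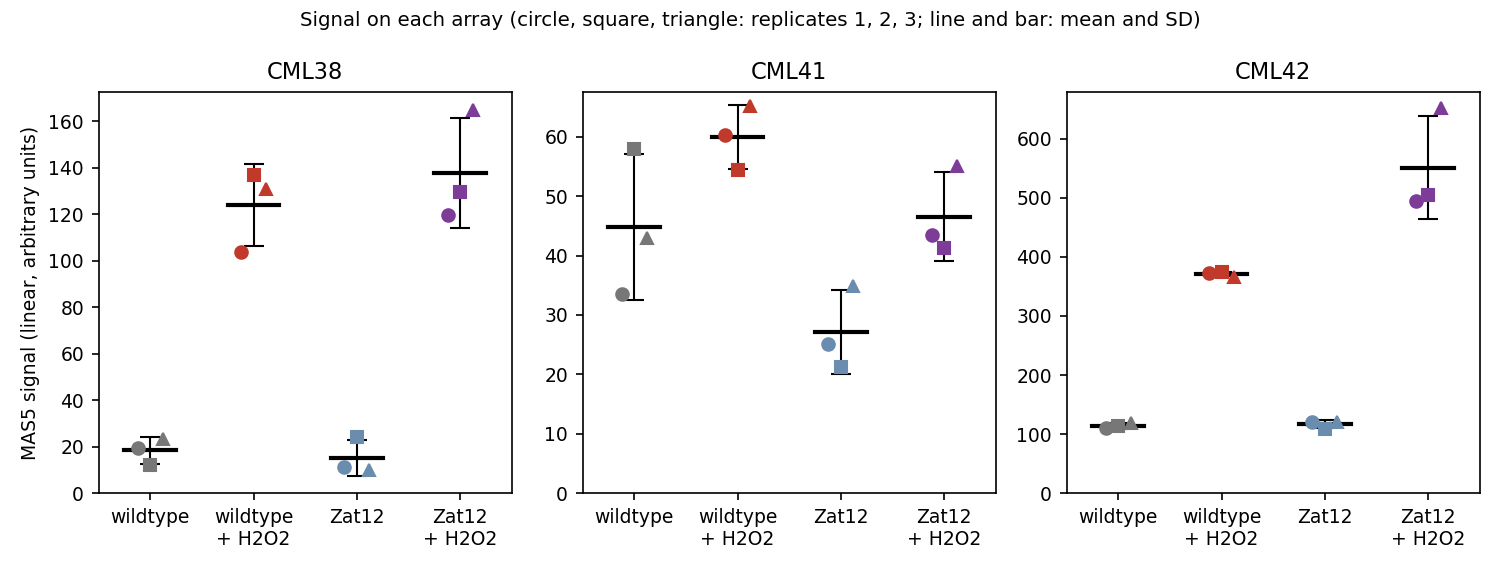
MAS5 signal (linear scale from 0, arbitrary units) of CML38, CML41 and CML42 on each of the 12 arrays, by group, with a horizontal line at the mean and a bar for the SD of 3 arrays. Treated arrays of CML38 (104 to 165) and CML42 (366 to 652) stand clear of the untreated ones in both genotypes, whereas for CML41 the wildtype groups overlap.

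The order of the group means differed between the genes. For CML38 it ran from untreated Zat12 through untreated wildtype and treated wildtype to treated Zat12, and the only step without overlap was that from untreated to treated. For CML42 the untreated groups differed by less than their spread, followed by treated wildtype and then treated Zat12, each clear of the group before. For CML41 the order was untreated Zat12 (27.1), untreated wildtype (44.8), treated Zat12 (46.5) and treated wildtype (59.9), and each neighbouring pair overlapped. The CML41 mean of untreated Zat12 was thus 0.606 of the wildtype mean, but the lowest wildtype array (33.5) was below the highest Zat12 array (34.9).

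The comparison of the genotypes asked whether constitutive Zat12 changes these genes by itself. Without treatment no member was called, where 1.22% of all tested probe sets were (limma). The log2 difference of Zat12 from wildtype was 0.03 for CML42, with a 95% confidence interval of -0.22 to 0.27, and -0.28 for CML38, with an interval of -0.82 to 0.26. For CML41 it was -0.66, with an interval of -1.11 to -0.21 that excludes 0 before adjustment (limma adjusted p = 0.17). Leaving out single arrays moved the CML41 value between -0.84 and -0.47, with adjusted p-values from 0.0994 to 0.473.

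Under H2O2, where 2.92% of tested probe sets differed between the genotypes, CML42 was higher in Zat12, as were 1.52% of probe sets, by 0.56 on the log2 scale (SE 0.12, limma adjusted p = 0.0169), with an interval of 0.31 to 0.80. CML38 differed by 0.15 (interval -0.40 to 0.69) and CML41 by -0.35 (interval -0.80 to 0.10), and neither was called. The call of CML42 ended without wildtype H2O2 replicate 1 (0.56, limma adjusted p = 0.0585), wildtype H2O2 replicate 3 (0.55, 0.0576) or Zat12 H2O2 replicate 3 (0.43, 0.094). Replicate 3 of treated Zat12 was the array with the highest signal of all 3 members within its group. The remaining treated Zat12 arrays of CML42 (495 and 505) were above the treated wildtype arrays (366 to 374), which is a description and no test.

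Whether the H2O2 response itself depended on the genotype was tested as the difference between both responses. That difference was 0.53 for CML42 (95% confidence interval 0.18 to 0.87, limma adjusted p = 0.412), 0.43 for CML38 (-0.34 to 1.20, 0.833) and 0.31 for CML41 (-0.32 to 0.94, 0.854). All 3 estimates were positive and none was called, where 0.110% of tested probe sets were. A larger response in Zat12 was therefore not shown for any member.

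**Figure D2:**
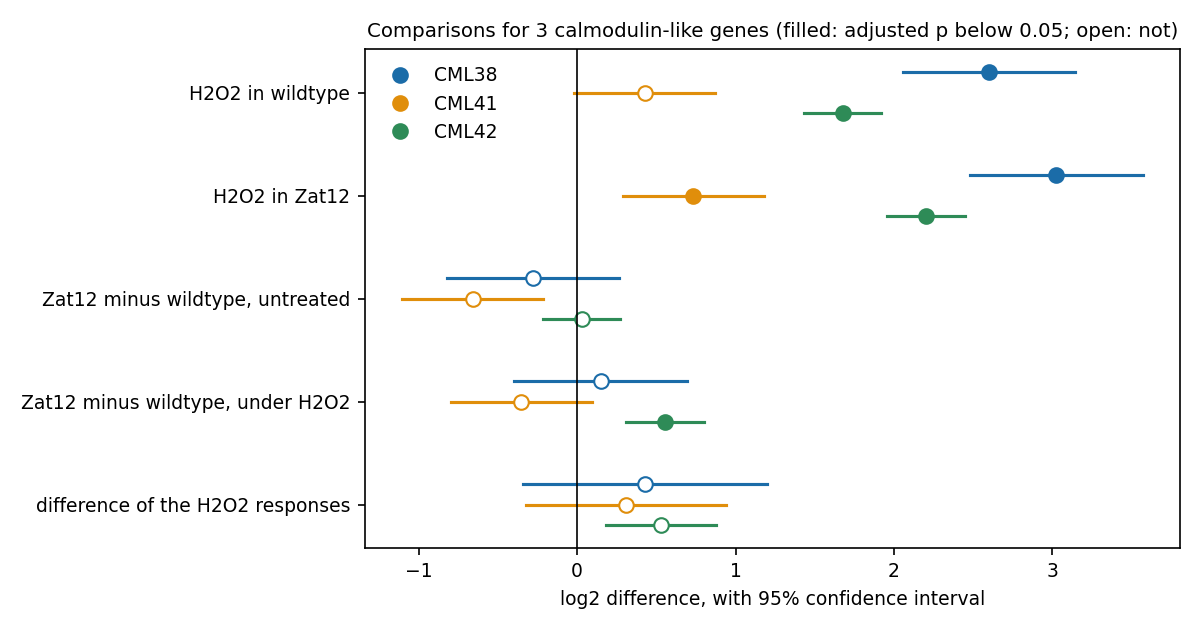
Log2 differences (x axis) of CML38, CML41 and CML42 in the 5 comparisons (y axis), with lines for the unadjusted 95% confidence interval; filled points had a limma adjusted p below 0.05. The H2O2 responses of CML38 (2.60 and 3.03) and CML42 (1.68 and 2.20) lie far from 0, and the filled points among the other comparisons are CML41 for H2O2 in Zat12 (0.73) and CML42 between the genotypes under H2O2 (0.56).

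**Figure D3:**
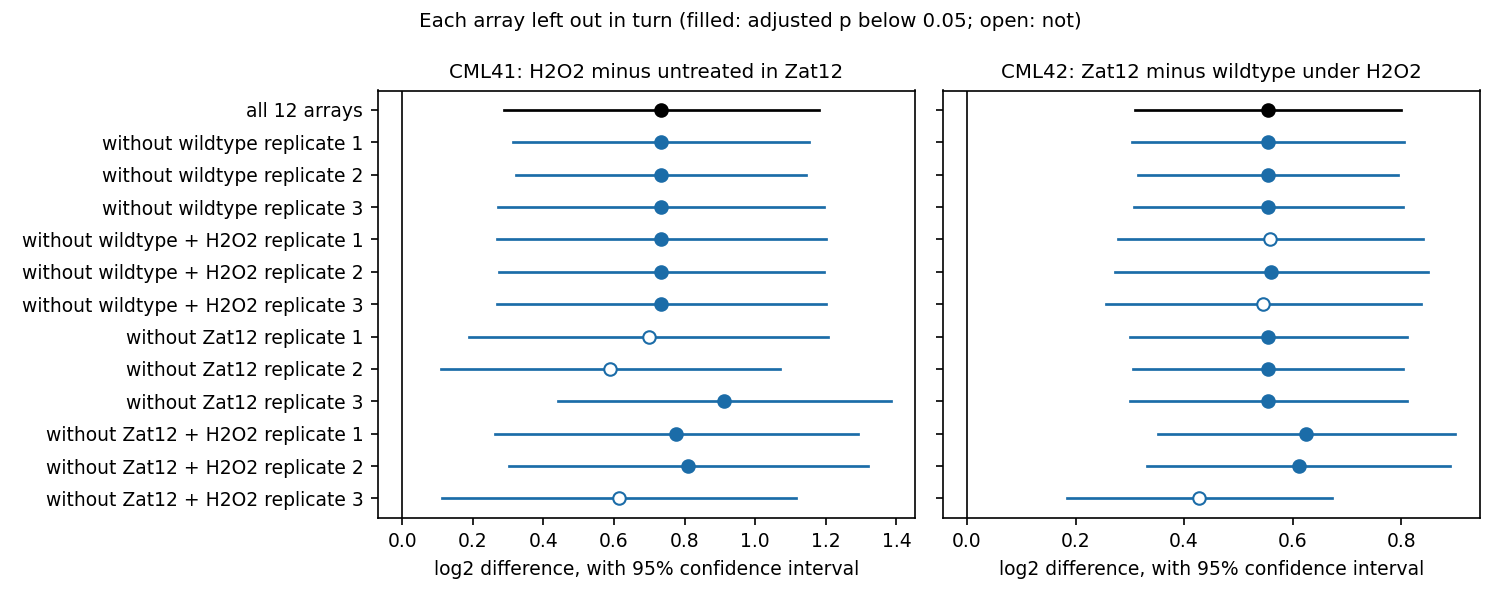
Log2 difference and unadjusted 95% confidence interval (x axis) with all 12 arrays and with each array left out in turn (y axis), for CML41 under H2O2 in Zat12 and for CML42 between the genotypes under H2O2. Filled points had a limma adjusted p below 0.05: each call ends for 3 of the arrays, while every estimate stays above 0 (0.59 to 0.91 for CML41 and 0.43 to 0.63 for CML42).

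Several other readings moved with these groups. A 25S ribosomal RNA control read 33.0 to 125 on untreated wildtype arrays, 126 to 295 on treated wildtype, 96.3 to 275 on untreated Zat12 and 133 to 286 on treated Zat12. With its log2 signal as a covariate, the H2O2 difference of CML41 in wildtype was 0.88 and was called (limma adjusted p = 0.04), and its genotype difference without treatment was -0.32 (0.781). Markers of shoots and of roots were both measured. The summed signal of all 3 measured shoot markers of 22, RCA, PSAE-1 and LHCB4.3, was 9745 to 12250 in untreated and 10992 to 11611 in treated wildtype, and 11230 to 12322 and 11768 to 11964 in Zat12. That sum follows RCA (group means of 6651 to 7030) and PSAE-1 (4099 to 4690), and hardly LHCB4.3 (132 to 239). Of the 6 measured root markers of 18, 4 fell with H2O2 in wildtype and all 6 in Zat12 (limma), where 12.4% and 9.12% of all tested probe sets fell, and the sum of the 5 with a value on every array went from 680 to 770 down to 262 to 350 in wildtype and from 712 to 1073 down to 175 to 275 in Zat12. Between genotypes the markers went both ways. LHCB4.3 was lower in Zat12 (-0.73 untreated and -0.77 treated, both called by limma), while RCA had 0.07 and 0.04 and PSAE-1 had 0.16 and 0.15. Untreated, 4 of the 6 root markers had a positive difference, up to 0.57 for EXPA7, none of them called, and AT1G52070 was called lower (-0.80). Under H2O2 all 6 had a negative one, with AT1G52070 (-1.38) and AT5G17820 (-0.63) called. No measured marker was at 0. In whole seedlings, fewer cells of a type and less RNA per cell cannot be told apart, and the part of these readings in the results for the members was not tested.

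To set the members in their family, a list of 57 calmodulin and CML loci was used. Of these, 35 had a probe set with 1 gene and 16, the members included, passed the filter on low signals. The 35 held none of the calmodulins CAM1 to CAM7, so all values for this list are those of CML genes. With H2O2, 8 of these 16 rose and 1 fell in wildtype, and 8 rose and 0 fell in Zat12, and 7 of the risers were shared. In all tested probe sets 9.59% rose in wildtype and 8.16% in Zat12. The median log2 difference of the 16 was 0.42 in wildtype and 0.44 in Zat12, beside -0.07 and -0.09 over all tested probe sets. CML38 and AT5G39670 passed the filter through their treated groups only, so the counts are a description of the tested genes and not of the family.

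Among the tested genes, AT5G39670 came closest to CML38 in the size of its response, rising from 19.1 ± 1.92 to 120 ± 13.9 in wildtype (SD, n = 3 per group), a log2 difference of 2.47. In Zat12 it rose by 2.64, with 14.9 and 23.6 on the untreated arrays that had a value, and 134 ± 25.3 after treatment (SD, n = 3). AT2G41090 rose by 1.21 in wildtype and 1.28 in Zat12, and AT2G41410 by 0.85 and 0.96. The rises of AT3G25600 (0.43 and 0.88) and AT5G04170 (0.42 and 0.49) were smaller. AT1G18210 rose in wildtype (0.54) and had 0.34 in Zat12 (adjusted p = 0.0702), and AT1G12310 fell in wildtype (-0.45) and had -0.24 in Zat12 (adjusted p = 0.302). The limma adjusted p of the called genes in this paragraph lay between 3.05e-08 and 0.0402.

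The remaining 6 tested genes, CML30, CML43, AT1G62820, AT1G73630, AT3G10190 and AT3G10300, were not called in any comparison. For CML43 the H2O2 difference was 0.06 in wildtype, with a 95% confidence interval of -0.30 to 0.41, which lies below that of CML42 (1.43 to 1.92). Between untreated genotypes 0 of the 16 were called by limma, where 1.22% of all tested probe sets were. Under H2O2 CML42 was the 1 gene of the 16 that was called between genotypes, where 2.92% of tested probe sets were. For the difference of the responses 0 were called, where 0.110% of tested probe sets were.

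**Figure D4:**
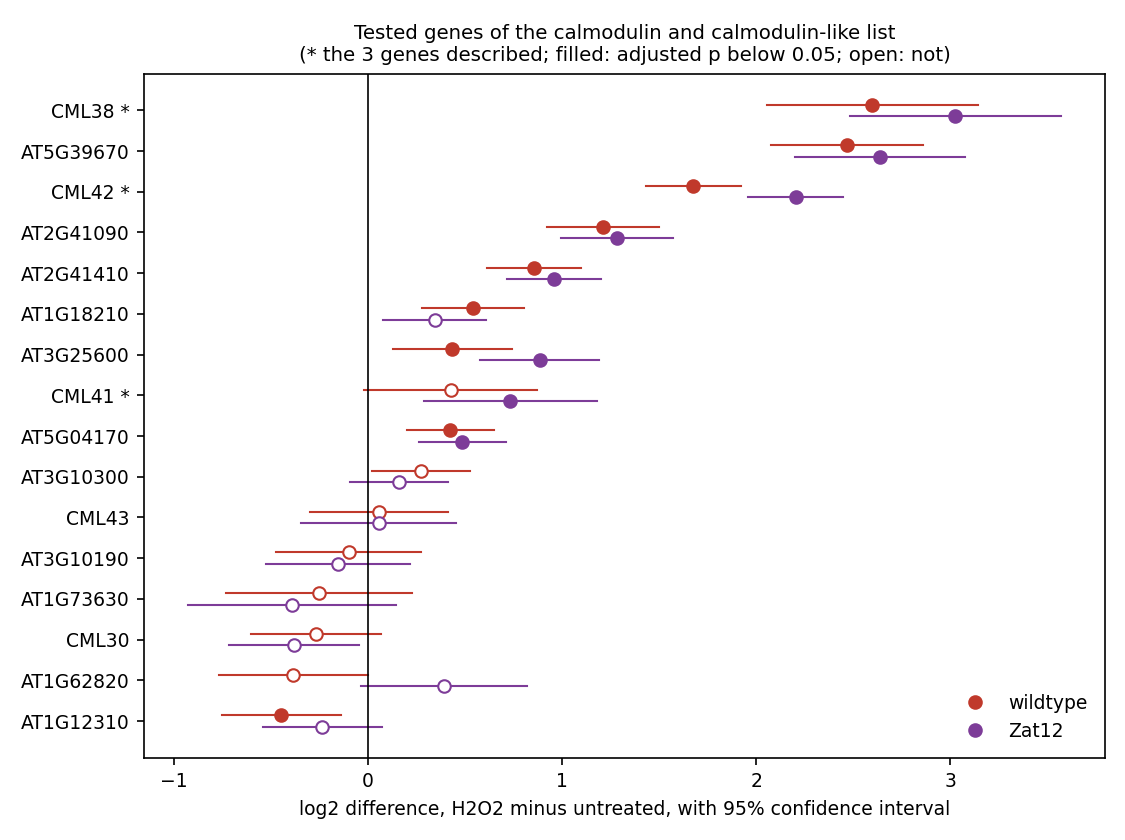
Log2 difference of treated minus untreated arrays (x axis, with unadjusted 95% confidence intervals) for the 16 tested genes of the calmodulin and CML list (y axis, sorted by the wildtype value), in wildtype and Zat12. Filled points had a limma adjusted p below 0.05: CML38, AT5G39670 and CML42 head the list in both genotypes, and CML41 is filled in Zat12 only, which is no test of a difference between the genotypes.

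Among the 19 genes of the list below the filter, 3 were called with H2O2 in a fit with no filter. Over all probe sets in that fit, 5.82% rose and 6.34% fell in wildtype, and 5.10% rose and 4.69% fell in Zat12. CML37, known as a protein induced by wounding and insect feeding, read 1.09 to 5.42 in untreated and 21.2 to 27.1 in treated wildtype, and 0.626 to 3.16 and 32.9 to 42.1 in Zat12. In that fit it rose by 2.25 in wildtype (limma adjusted p = 0.000268) and 3.09 in Zat12 (limma adjusted p = 1.31e-05). AT3G01830 rose as well, by 1.61 and 2.75 (adjusted p = 0.00511 and 0.000209), with untreated signals between 0.480 and 0.776, and AT4G26470 fell in wildtype (-1.13, adjusted p = 0.0184), as did 6.34% of all probe sets. Signals below the offset of 3 give differences that the offset sets in part.

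CML39 (AT1G76640), the gene next to CML38 in the RefSeq table of the assembly TAIR10.1, had low signals. They stayed between 0.964 and 5.99 on all 12 arrays, with a mean of 1.24 in untreated and 1.88 in treated wildtype and of 1.09 and 3.49 in Zat12. With no filter the log2 differences were 0.18 and 0.60, neither called (limma adjusted p = 0.755 and 0.2). At signals around the offset of 3, a missing call does not show that the gene did not respond. With no filter, 9 of the 35 genes rose in each genotype, where 5.82% of all probe sets rose in wildtype and 5.10% in Zat12. CML41 was not among the 9 in either genotype.

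Other parts of calcium signalling were covered unevenly. A name search found 75 calcium-dependent kinase, CBL and CIPK genes in the RefSeq table, but the annotation used paired none of them with a probe set, so they were not analysed here. The search for calmodulin-binding proteins also covered the names CAMTA, CBP60 and SARD1, but gave only IQD genes with a probe set of their own. Of 15 IQD proteins, a plant family that binds calmodulin, 9 were tested, and 6 fell with H2O2 in wildtype and the same 6 in Zat12, where 12.4% and 9.12% of tested probe sets fell. Their called differences were small, between -0.79 and -0.41 in wildtype and between -0.69 and -0.39 in Zat12. They included IQD30 (-0.79) and IQD24 (-0.77) in wildtype and IQD21 (-0.69) in Zat12 (limma adjusted p = 0.00204, 4.47e-04 and 5.55e-04). The median of the 9 was -0.48 in wildtype and -0.52 in Zat12, beside -0.07 and -0.09 over all tested probe sets. Single arrays mattered: 3 of the 9 were called in wildtype without wildtype replicate 1, wildtype replicate 3 or wildtype H2O2 replicate 2, and in Zat12 3 without Zat12 replicate 1 or 2 and 2 without Zat12 H2O2 replicate 3. With any single array left out, 2158 to 2959 of all tested probe sets were called in wildtype and 1794 to 2711 in Zat12, in either direction.

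The falls do not describe the whole IQD list. IQD22, below the filter, read 3.502 to 26.3 in untreated and 64.0 to 78.5 in treated wildtype, and 2.70 to 22.4 and 57.1 to 76.2 in Zat12. Its treated arrays were thus all above its untreated ones. With no filter it rose by 2.68 in wildtype and 2.74 in Zat12 (limma adjusted p = 0.00627 and 0.0059), more than any IQD gene fell. In that fit 1 of the 15 rose and 4 fell in wildtype, where 5.82% of all probe sets rose and 6.34% fell. In Zat12 2 rose, IQD18 being the other (1.41, limma adjusted p = 0.0488), and 4 fell, where 5.10% of all probe sets rose and 4.69% fell.

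The search for channels, pumps and exchangers covered the names CNGC, ACA, ECA, CAX, TPC1, OSCA and annexin, but gave only glutamate receptor-like genes with a probe set. Glutamate receptor-like channels, which pass calcium, had 3 tested genes of 8 with a probe set. None was called by limma with H2O2 in wildtype, where 22.0% of tested probe sets were, or in Zat12, where 17.3% were. The single gene found by the words for other calcium-binding proteins was CaS, a calcium-sensing protein of the thylakoid. It fell with H2O2, by 0.51 on the log2 scale in wildtype (limma adjusted p = 0.00132) and by 0.31 in Zat12 (0.0469), the opposite direction to CML38 and CML42. It was also lower in Zat12 than in wildtype, by a log2 value of -0.80 untreated (limma adjusted p = 0.000436) and -0.59 under H2O2 (0.0048).

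The genes whose pattern over the arrays was most like that of each member were listed by Pearson's r of the log2 values, among 7359 tested probe sets with 1 gene. No p is given. For CML38 and CML42 the treated and untreated arrays form separate clusters, so r follows the treatment, whereas for CML41 they overlap. For CML38 they were AT2G32020 (r = 0.995, 11 arrays), AT4G17900 (r = 0.988, 11 arrays) and STZ (r = 0.988, 12 arrays), the zinc finger repressor also called ZAT10. For CML42 they were AT1G19020 (r = 0.995, 12 arrays), AT1G30070 (r = 0.995, 11 arrays) and AT1G05575 (r = 0.993, 12 arrays). Their log2 differences between treated genotypes were 0.73, 0.82 and 0.73. The sign is that of CML42, which the choice by r over the same arrays favours. For CML41 the genes most like it were AT4G27480 (r = 0.934, 12 arrays), AT5G19250 (r = 0.899, 11 arrays) and AT5G26600 (r = 0.898, 11 arrays). All had a lower mean in untreated Zat12 than in untreated wildtype, which the choice by r favours too. Between members r was 0.956 for CML38 and CML42, 0.592 for CML41 and CML42, and 0.589 for CML38 and CML41, over 12 arrays.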

How the data were processed

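The values the authors deposited are intensities on a linear scale, MAS5 signals per the submitters' processing notes. The MAS5 version and its detection calls are not given in the sources used here. They had scaled each array, since every trimmed mean was close to 100.0 and the medians lay between 40.7 and 44.9. Zat12 replicate 2 had 6408 empty cells (28.1%), which were left empty. Groups came from the sample titles. Same-numbered arrays deviated together between the treated groups (r = 0.122, 0.146 and 0.133) and between untreated and treated Zat12 (r = 0.079, 0.119 and 0.232). This is from the data and not the labels, and the replicate number as a block changed no call of a member. Of 22746 probe sets that are no controls, 13513 had 1 gene, 503 several and 8730 none in the platform annotation. For 13436 of the probe sets with 1 gene, that gene was found in the RefSeq table of TAIR10.1, which gave names and loci.

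An offset of 3, close to the 10th percentile of the signals, was added before log2 was taken. Probe sets whose mean log2 value over all arrays was above the 40th percentile (equal to a signal of 28.1) were tested, 13647 in all. limma 3.58.1 in R 4.3.3 fitted 4 group means with a mean-variance trend, and p-values were adjusted by Benjamini-Hochberg over all tested probe sets. The script was tested on simulated data. Python 3.11.15 drew the plots.

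Alternatives were quantile normalization, median centring, no offset, 4 times the offset, no filter, a filter at the 60th percentile, no trend, the compared groups only, the replicate number as a block, the 25S control as a covariate, and each array left out. The members and lists were chosen with earlier results of these data known. Named were the members, called genes of the calmodulin and CML list, up to 3 called genes of each other list and comparison, and the 3 genes most like each member. AT3G01830, AT4G26470, CML37, CML39, IQD18, IQD22 and the 6 family genes not called were named after their values were seen. No sequences were used here.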

Additional observations from a re-analysis of the deposited data

How the results depend on the processing

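The 15 results for the members (3 genes in 5 comparisons) were recomputed under 317 alternatives in all, and 308 kept their direction and their side of the threshold. The 60th percentile filter gave no value for CML38 and CML41, and the fit on the compared groups gave none for the difference of the responses. Of the other 9, CML41 under H2O2 in wildtype was called once the 25S control entered as a covariate (0.88), and its difference of the responses turned from 0.31 to -0.034 (adjusted p = 0.999) in that fit. CML41 under H2O2 in Zat12 was not called with no filter (0.73), and ran from 0.59 to 0.91 with single arrays left out. CML42 between treated genotypes ran from 0.43 to 0.63. The cause of these changes was not tested.

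Counts of the calmodulin and CML list called with single arrays left out ran from 7 to 9 for H2O2 in each genotype and from 0 to 1 between treated genotypes. In the same fits the count over all probe sets for H2O2 ran from 2158 to 2959 in wildtype and from 1794 to 2711 in Zat12. The 60th percentile filter tested 11 of the list and called 5 for H2O2 in Zat12. The main fit called 8 of 16 there, where 17.3% of all tested probe sets were called. The share of all probe sets called under the 60th percentile filter is not given here, so these counts are a description only. Over all probe sets, the count called between untreated genotypes went from 167 to between 42 and 239, between treated genotypes from 398 to between 126 and 653, for the difference of the responses from 15 to between 3 and 48, and for H2O2 in wildtype from 2998 to 1680 with the 25S covariate.

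Replicate numbers are shared between groups, but nothing in the labels ties them to a culture or day. Deviations from the group means correlated between -0.254 and 0.232 in the 18 same-numbered pairs. Between the treated groups they were 0.122, 0.146 and 0.133, and between untreated and treated Zat12 0.079, 0.119 and 0.232. Treated wildtype and untreated Zat12 had 0.046, 0.016 and 0.124, also all positive. Untreated and treated wildtype had 0.105, 0.047 and -0.06, and untreated wildtype had only negative values with each of the Zat12 groups. The own number was the best match among 3 in 20 of 36 cases, so not for every array. With the replicate number as a block no call of a member changed: CML38 had 2.60 and 3.03 for H2O2 in wildtype and Zat12, CML41 0.73 in Zat12 (adjusted p = 0.0208) and CML42 0.56 between treated genotypes (0.0164). CML41 between treated genotypes, lower in Zat12 in all 3 same-numbered pairs, had -0.35 (0.415). Signal over background could not be judged, because detection calls were not used here.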
